A study of Mus musculus with 35 samples.

Results

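A set of 10 genes that report amino acid and energy supply to mTORC1 were followed through 35 RNA-seq libraries of OT-I CTLs, which are cytotoxic CD8 T cells from mice with a transgenic T-cell receptor for an ovalbumin peptide. The genes were listed for their place in the pathway, with earlier results of these data known: the sestrins Sesn1, Sesn2 and Sesn3, the GATOR1 subunits Nprl2, Nprl3 and Depdc5, the GTPase Rragd, its regulator Flcn, and the kinases Stk11 (LKB1) and Prkaa1 (AMPK alpha 1). All 10 were among the 48709 genes counted and the 13819 genes tested. Spleen CD8 T cells had been primed through CD3 and CD28 and then grown in IL-2, and 5 libraries were made at each of 7 conditions: at 0 h, and after 24 h at pH 7.4, pH 7 or pH 6.6, either without IL-2 or with 200 IU/mL of it. Dead cells were removed on a density gradient before RNA was extracted, so the values describe the cells that survived. The questions were what acidity did to these genes, and whether the answer depended on IL-2.

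mTORC1 is a kinase complex that drives growth when nutrients are at hand, and it is switched on at the lysosome surface by Rag GTPases. GATOR1 (Nprl2, Nprl3 and Depdc5) inactivates the Rag proteins RagA and RagB when amino acids are short, and sestrins hold back GATOR2, the inhibitor of GATOR1. Folliculin (Flcn) acts on RagC and RagD, and LKB1 activates AMPK, which restrains mTORC1 when energy is low. In T cells, IL-2 is among the inputs that turn mTORC1 on. The libraries measure RNA, and no activity of these proteins was measured here.

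All 10 are protein-coding genes, counted over their exons. In GENCODE M21 (GRCm38), Sesn1 (chr10:41809935-41908424), Sesn3 (chr9:14275067-14333101), Nprl2 (chr9:107542226-107545706), Depdc5 (chr5:32863701-32994236), Rragd (chr4:32983037-33022180), Stk11 (chr10:80115803-80130682) and Prkaa1 (chr15:5143861-5181899) lie on the plus strand, and Sesn2 (chr4:132492032-132510501), Nprl3 (chr11:32225628-32267707) and Flcn (chr11:59791408-59810016) on the minus strand.

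The total count on genes ranged from 16721319 to 34033340 per library, with the lowest in pH 6.6 with IL-2. All 6 CD8 T-cell markers had counts in every library, but their summed level moved with the conditions. It was 8857 to 11470 CPM (a count scaled to library size) at pH 7.4 and 2525 to 3672 CPM at pH 6.6 with IL-2, and 2196 to 2528 CPM and 1860 to 2066 CPM without it. Gzmb, which encodes granzyme B, had means of 7796 and 844.8 CPM at pH 7.4 and pH 6.6 with IL-2, and Prf1 (perforin) 379.9 and 92.7 CPM, while Cd8a had 937.8 and 1046 CPM. The part of these shifts in the results was not tested. The 4 B-cell markers together stayed at or under 0.381 CPM in every library, with Ms4a1 and Pax5 at 0 in all 35, the 5 myeloid markers at or under 3.98 CPM, and Cd4 at or under 2.48 CPM. The natural killer markers reached 94.9 CPM, nearly all of it Klrb1c, while Ncr1 was at 0 in 25 libraries. Klrb1c also fell at pH 6.6 with IL-2, from a mean of 44.2 to 25.8 CPM. In a bulk sample, fewer cells that express a gene and less RNA of it per cell cannot be told apart.

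Flcn and Sesn2 responded to IL-2 at pH 7.4 in opposite directions, and their start regions are shown as the sequence next to those values. The 250 bases before the RefSeq start (GRCm38.p6, minus strand for both) lie at chr11:59810040-59810289 for Flcn and chr4:132510457-132510706 for Sesn2, and are written 5′ to 3′.
Flcn: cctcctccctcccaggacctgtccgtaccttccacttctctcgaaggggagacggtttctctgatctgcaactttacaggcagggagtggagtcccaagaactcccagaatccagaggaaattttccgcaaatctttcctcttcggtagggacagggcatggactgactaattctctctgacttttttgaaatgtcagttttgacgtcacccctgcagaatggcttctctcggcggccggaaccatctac
Sesn2: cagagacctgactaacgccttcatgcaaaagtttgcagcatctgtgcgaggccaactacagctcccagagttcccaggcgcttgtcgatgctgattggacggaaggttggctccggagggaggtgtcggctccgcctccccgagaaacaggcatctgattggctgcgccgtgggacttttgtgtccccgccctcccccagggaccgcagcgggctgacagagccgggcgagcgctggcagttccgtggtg
All letters are in lower case because none of 4 motifs was found in them on either strand: TGATGNAA (the core of the ATF4 element), GTAAACA (the FoxO element), CACGTG (the E-box) and GTCACGTG (the core of the CLEAR element of TFEB, which contains the E-box, so that each of its matches is an E-box match too). The same was true of all 11 windows of the 10 genes. These motifs were present in 3.45%, 3.17%, 6.02% and 1.85% of the 32851 windows of all genes, respectively, and their absence says nothing of sites elsewhere.

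**Figure D1:**
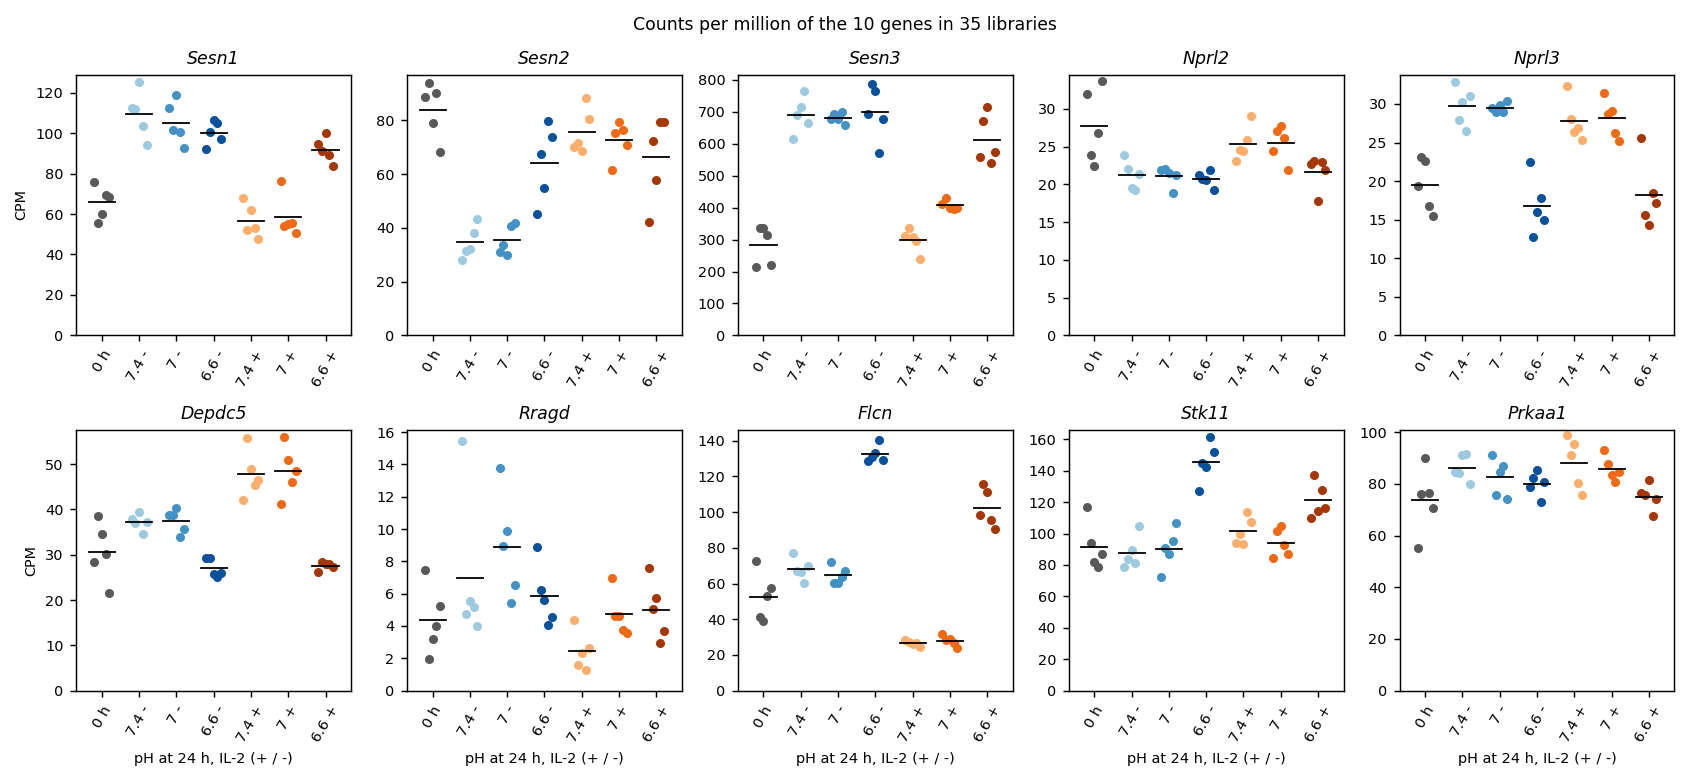
CPM of each gene in every library (points, 5 per condition) with the mean of the condition (line); the x axis gives 0 h, then pH without IL-2 (-) and with IL-2 (+). Flcn was lowest with IL-2 at pH 7.4 and pH 7 and highest at pH 6.6, while Prkaa1 stayed between 55.1 and 98.8 CPM throughout.

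Lowering the pH from 7.4 to 6.6 with IL-2 present raised 5 of the 10 genes (Flcn, Rragd, Sesn3, Sesn1 and Stk11) and lowered 4 (Depdc5, Nprl3, Prkaa1 and Nprl2). Sesn2 did not pass the threshold, an adjusted p of 0.05 in edgeR's quasi-likelihood test over all tested genes. Of all tested genes, 35.4% were higher and 40.9% lower in the same comparison, so a call was common, and the sizes say more than the count. At least a 2-fold change was seen for Flcn, Rragd and Sesn3. Such a change was also common, as 4753 of the 13819 tested genes were called with one. Without IL-2, 3 genes were higher at pH 6.6 (Flcn, Sesn2 and Stk11) and 2 lower (Nprl3 and Depdc5), against 31.6% and 35.4% of all genes. None of the 10 changed by 2-fold there, while 2829 of the 13819 tested genes were called with such a change. Reads outside annotated genes moved with pH among the cells with IL-2: they made up 3.91% to 5.18% of reads at pH 7.4 and 7.34% to 8.83% at pH 6.6. Their part in these differences was not tested.

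Flcn, the gene of the Birt-Hogg-Dube syndrome protein folliculin, changed most. With IL-2, its 5 libraries held 28.4, 27.2, 26.1, 26.6 and 24.7 CPM at pH 7.4 and 98.5, 115.9, 111.3, 95.4 and 90.5 CPM at pH 6.6. The groups lay far apart, and every pH 6.6 library was above every pH 7.4 library. The log2 fold change was 1.95 ± 0.10 (SE, n = 5 per group; edgeR adjusted p = 2.07e-17), a 3.86-fold rise. Without IL-2 its levels were already higher, at 77.2, 67.3, 66.6, 60.4 and 69.6 CPM at pH 7.4, and they reached 128.9, 131, 133.4, 140.4 and 129.4 CPM at pH 6.6. The groups were again apart, but on the log2 scale the rise was smaller, 0.96 ± 0.10 (edgeR adjusted p = 5.31e-10). The pH effect was larger with IL-2 by 0.98 ± 0.14 on the log2 scale (edgeR interaction contrast, adjusted p = 3.16e-07). In order of level, Flcn was lowest with IL-2 at pH 7.4 and pH 7, whose values overlapped, then at 0 h and, overlapping it and each other, at pH 7 and pH 7.4 without IL-2, and it was highest at pH 6.6, where the group with IL-2 lay below the group without it.

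Rragd encodes RagD, a Rag GTPase that folliculin acts on. It was the least abundant of the 10, with 1.53 ± 0.78 TPM (a level that corrects for gene length as well; SD, n = 5) in cells with IL-2 at pH 7.4. With IL-2, it held 4.38, 1.60, 2.34, 1.28 and 2.62 CPM at pH 7.4 and 7.57, 5.08, 5.70, 2.96 and 3.71 CPM at pH 6.6. The groups overlapped because replicate 1 at pH 7.4 lay above replicates 4 and 5 at pH 6.6. All 5 pairs of equal number moved up, and the log2 fold change was 1.07 ± 0.22 (edgeR adjusted p = 4.83e-05). Without IL-2, it held 15.4, 4.71, 5.55, 5.17 and 3.98 CPM at pH 7.4 and 8.87, 6.24, 5.59, 4.05 and 4.56 CPM at pH 6.6. Replicate 1 stood above the rest in both groups. The difference there, -0.15 ± 0.20, did not pass the threshold (95% interval -0.54 to 0.24), and it was 0.04 without replicate 1. The pH effects with and without IL-2 differed by 1.23 ± 0.29 on the log2 scale (edgeR adjusted p = 0.000495), and by 1.18 without replicate 1.

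Sestrins are stress-inducible proteins, and Sesn2 is also a leucine sensor. Sesn3, the most abundant sestrin by TPM at pH 6.6 with IL-2, held 311.8, 336.6, 309.1, 294.3 and 237.7 CPM at pH 7.4 with IL-2 and 557.3, 672, 715.2, 539.5 and 575.5 CPM at pH 6.6. The groups did not overlap, and the log2 fold change was 1.04 ± 0.10 (edgeR adjusted p = 1.34e-11). Those acidic libraries overlapped the range seen without IL-2, where its values at pH 7.4 and pH 6.6, from 571 to 788 CPM in all, overlapped (log2 difference 0.02 ± 0.09, 95% interval -0.17 to 0.20). Sesn1 took the same course at a lower level. It rose from 68.1, 52.3, 61.8, 53 and 47.5 CPM at pH 7.4 to 94.8, 91, 100.3, 89.3 and 83.7 CPM at pH 6.6 with IL-2, a log2 fold change of 0.71 ± 0.09 (edgeR adjusted p = 5.41e-09). Without IL-2 its difference of -0.12 ± 0.08 did not pass (95% interval -0.28 to 0.05), but it passed as lower with upper-quartile scaling (-0.24, edgeR adjusted p = 0.0117) and with total counts (-0.27, adjusted p = 0.00323). The pH effect differed with IL-2 by 1.02 ± 0.13 for Sesn3 and 0.83 ± 0.12 for Sesn1 (edgeR adjusted p = 4.97e-08 and 3.21e-07).

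Sesn2 showed the reverse dependence. Without IL-2 it held 28.1, 31.5, 32.1, 38 and 43.1 CPM at pH 7.4 and 45, 67.5, 54.7, 79.8 and 73.9 CPM at pH 6.6. The lowest acidic library was just above the highest neutral one, and the log2 fold change was 0.88 ± 0.11 (edgeR adjusted p = 3.72e-08). With IL-2, it held 70.1, 71.5, 68.7, 88.4 and 80.4 CPM at pH 7.4 and 42.2, 72.3, 58, 79.5 and 79.3 CPM at pH 6.6. These groups overlapped, with 2 acidic libraries below all others, and the difference of -0.21 ± 0.11 did not pass (edgeR adjusted p = 0.0794, 95% interval -0.43 to 0.004), although it did without replicate 5 (-0.26, edgeR adjusted p = 0.0296). Without replicate 1 it was -0.03 (adjusted p = 0.801). The pH effect with IL-2 was lower than that without it by 1.10 on the log2 scale (SE 0.16; edgeR adjusted p = 3.03e-07).

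Nprl3 and Depdc5 fell at pH 6.6 whether or not IL-2 was there, and Nprl2 was called lower only with IL-2. Depdc5, the GATOR1 subunit that binds the Rag proteins, held 42, 55.9, 48.9, 45.3 and 46.5 CPM at pH 7.4 with IL-2 and 26.2, 28.3, 27.9, 27.9 and 27.2 CPM at pH 6.6. Its groups lay apart with a log2 fold change of -0.79 ± 0.09 (edgeR adjusted p = 7.38e-10). Without IL-2, it fell from a mean of 37.3 to 27.1 CPM (log2 fold change -0.46 ± 0.09, adjusted p = 2.3e-05). The pH effects differed by -0.33 ± 0.12 (edgeR adjusted p = 0.0187), but this was -0.23 (adjusted p = 0.131) without replicate 1 and -0.15 (adjusted p = 0.352) without replicate 2. The median log2 value of all tested genes in that contrast was then 0.14 and 0.137, in place of 0.04. Nprl3 held 32.3, 28, 26.3, 26.9 and 25.4 CPM at pH 7.4 with IL-2 and 25.5, 15.6, 14.3, 18.4 and 17.1 CPM at pH 6.6. Replicate 1 of the acidic group reached into the neutral range, and the log2 fold change was -0.62 ± 0.11 (edgeR adjusted p = 8.26e-06). It was -0.84 ± 0.11 without IL-2, where the groups lay apart (adjusted p = 9.43e-08). Of its exon bases, 17.7% overlap Mpg on the other strand, and reads there are set aside by the counting when strand is not used. The strand setting is not given.

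The remaining GATOR1 subunit, Nprl2, had 23.1, 24.5, 24.5, 25.8 and 29.1 CPM at pH 7.4 with IL-2 and 22.8, 23.1, 17.8, 23 and 21.9 CPM at pH 6.6. The groups were barely apart, and the log2 fold change of -0.23 ± 0.10 passed narrowly (edgeR adjusted p = 0.0325). It did not pass without any 1 of the 5 replicate numbers, with adjusted p from 0.0535 to 0.13, nor in DESeq2 (adjusted p = 0.108) or with any other scaling (0.108 to 0.417). The median log2 value of all tested genes in this comparison was -0.067 with TMM, the main scaling, and -0.007 to 0.071 with the others.

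The energy-sensing kinases moved little with IL-2. Stk11, 5.1% of whose exon bases overlap Cbarp on the other strand, held 93.9, 99.6, 93.1, 113.4 and 107.6 CPM at pH 7.4 and 109.8, 137.5, 114.6, 128 and 116.4 CPM at pH 6.6, which overlapped, with a log2 fold change of 0.26 ± 0.10 (edgeR adjusted p = 0.0208, and 0.0671 without replicate 3). Without IL-2 it rose more, from 78.8, 83.6, 89.5, 81 and 105 CPM to 127.3, 144.8, 142.6, 161.6 and 151.8 CPM. Those groups lay apart, with a log2 fold change of 0.73 ± 0.10 (edgeR adjusted p = 1.31e-07), and the pH effects differed by -0.48 ± 0.14 (adjusted p = 0.0037). Prkaa1, a catalytic subunit of AMPK, had a log2 fold change of -0.23 ± 0.08 with IL-2 (edgeR adjusted p = 0.0139) between overlapping groups of 75.9 to 98.8 CPM at pH 7.4 and 67.4 to 81.5 CPM at pH 6.6. That call was lost without replicate 1 (adjusted p = 0.124) or replicate 2 (0.194), in DESeq2 (0.0663) and with the other scalings (0.0677 to 0.287). The median log2 value of all tested genes was -0.004 without replicate 1 and 0.012 without replicate 2, in place of -0.067. The Prkaa1 difference without IL-2, -0.11 ± 0.08, did not pass (95% interval -0.27 to 0.06), but it passed with upper-quartile scaling (-0.23, edgeR adjusted p = 0.0126) and with total counts (-0.26, adjusted p = 0.00605). The other catalytic subunit gene, Prkaa2, had no count in any library.

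Over all 10 genes, the pH effect with IL-2 was higher than that without it for 4 genes and lower for 3, against 34.3% and 32.8% of all tested genes. Nprl2, Nprl3 and Prkaa1 did not pass in that contrast. With upper-quartile scaling, under which the median log2 value of all genes there was 0.297 in place of 0.04, the Depdc5 and Stk11 calls were lost (edgeR adjusted p = 0.616 and 0.182) and Nprl3 passed (0.47, adjusted p = 0.012, and 0.44, adjusted p = 0.0229, with total counts).

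**Figure D2:**
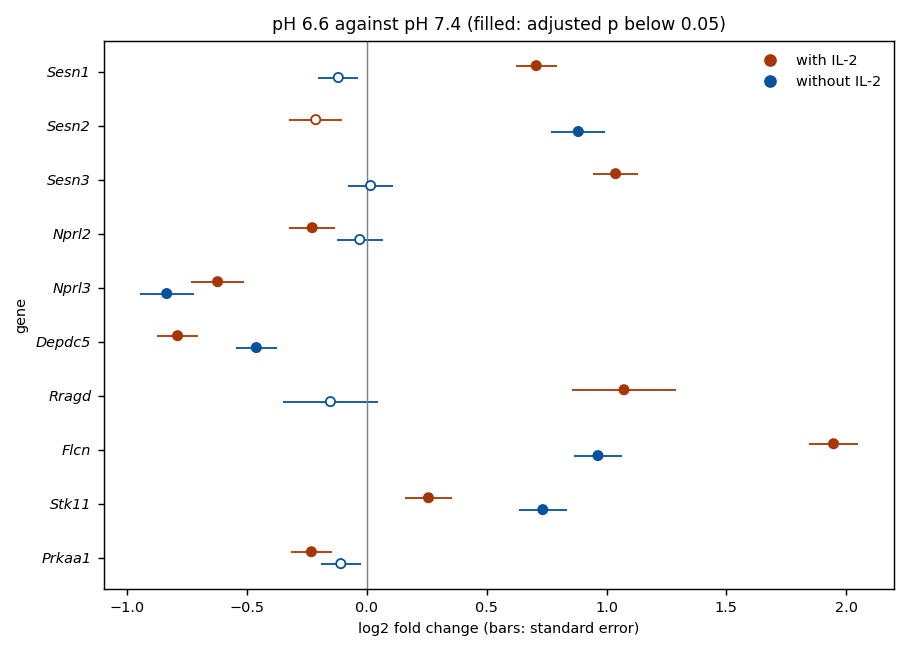
Log2 fold change of each gene at pH 6.6 against pH 7.4 with IL-2 (brown) and without (blue), with standard errors; filled points passed the threshold. Sesn1, Sesn3 and Rragd passed in cells with IL-2 and Sesn2 in cells without it, while Flcn passed in both.

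At pH 7 with IL-2, 2 of the 10 genes were higher than at pH 7.4 and none lower, against 9.15% and 9.83% of all genes. Sesn3 held 410.3, 430.4, 398.7, 396.9 and 399.3 CPM, all above the pH 7.4 libraries, with a log2 fold change of 0.46 ± 0.09 (edgeR adjusted p = 0.000924). Rragd held 6.99, 4.63, 4.64, 3.74 and 3.55 CPM, which overlapped with pH 7.4, with a log2 fold change of 1.00 ± 0.22 (adjusted p = 0.0014). Without the replicate block the Rragd call was lost (0.95, adjusted p = 0.0959). Flcn, at 24 to 31.8 CPM, had a difference of 0.07 ± 0.10 (95% interval -0.13 to 0.27). Without IL-2, none of the 10 genes passed at pH 7 (edgeR), against 1.36% higher and 0.318% lower of all genes. Rragd alone had a 95% interval clear of 0 there (0.06 to 0.82), with an adjusted p of 0.488.

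At pH 7.4, IL-2 itself lowered Rragd, Flcn, Sesn3 and Sesn1 and raised Sesn2, Depdc5 and Nprl2. That is 3 higher and 4 lower, against 39.3% and 41.1% of all genes, so a call was common here as well. Reads outside annotated genes moved with IL-2 at this pH, from 7.70% to 10.2% of reads without it to 3.91% to 5.18% with it, and their part in these differences was not tested. Flcn had a log2 fold change of -1.36 ± 0.10, Sesn3 of -1.22 ± 0.10, Sesn1 of -0.96 ± 0.09 and Rragd of -1.47 ± 0.21. Sesn2 had 1.14 ± 0.11, with all IL-2 libraries above all libraries without it. Nprl2 had 0.26 ± 0.10 (edgeR adjusted p = 0.0146), which was 0.0711 without replicate 2 and 0.0746 without replicate 4. Stk11 had 0.21 ± 0.10 and missed the threshold (adjusted p = 0.0501, though 0.0382 without replicate 3, 0.0228 without replicate 5 and 0.0299 in a fit of only the groups compared). With upper-quartile scaling, under which all tested genes had a median of -0.266 in place of -0.042, the calls of Nprl2 and Depdc5 were lost (edgeR adjusted p = 0.751 and 0.173), and Prkaa1, with 0.03 ± 0.08 otherwise, passed as lower (-0.195, adjusted p = 0.0258). Nprl3, with -0.10 ± 0.11 otherwise, also passed as lower with that scaling (-0.33, edgeR adjusted p = 0.0101) and with total counts (-0.26, adjusted p = 0.0455). At pH 7 the same split of 3 higher and 4 lower was found, against 37.6% and 39.5% of all genes; Nprl2 was again the weakest, with 0.27 ± 0.10 (adjusted p = 0.011, and 0.0548, 0.112 and 0.0726 without replicates 1, 2 and 4). Nprl3, with -0.08 ± 0.11, passed as lower there with upper-quartile scaling (-0.26, edgeR adjusted p = 0.0356).

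At pH 6.6, Flcn was the only 1 of the 10 that passed between cells with and without IL-2, and it was lower with IL-2, against 13.2% of all genes higher and 10.6% lower. Its log2 fold change was -0.37 ± 0.10 (edgeR adjusted p = 0.00537, and 0.0656 without replicate 4). Stk11 just missed the threshold, with -0.26 ± 0.10 (edgeR adjusted p = 0.0524), lower with IL-2 in 5 of 5 pairs and opposite in sign to its difference at pH 7.4. With upper-quartile scaling, its pH 7.4 difference was -0.0103. Sesn3 had -0.20 ± 0.09 (95% interval -0.38 to -0.01, adjusted p = 0.133). Both passed in a fit of only the groups compared, Stk11 with -0.23 (edgeR adjusted p = 0.00151) and Sesn3 with -0.15 (adjusted p = 0.0136). Sesn2 had 0.04 ± 0.11 (95% interval -0.17 to 0.26). The IL-2 effects at pH 7.4 and at pH 6.6 differ by the same interaction contrast as the pH effects, so the values above also test this difference, with the sign turned.

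**Figure D3:**
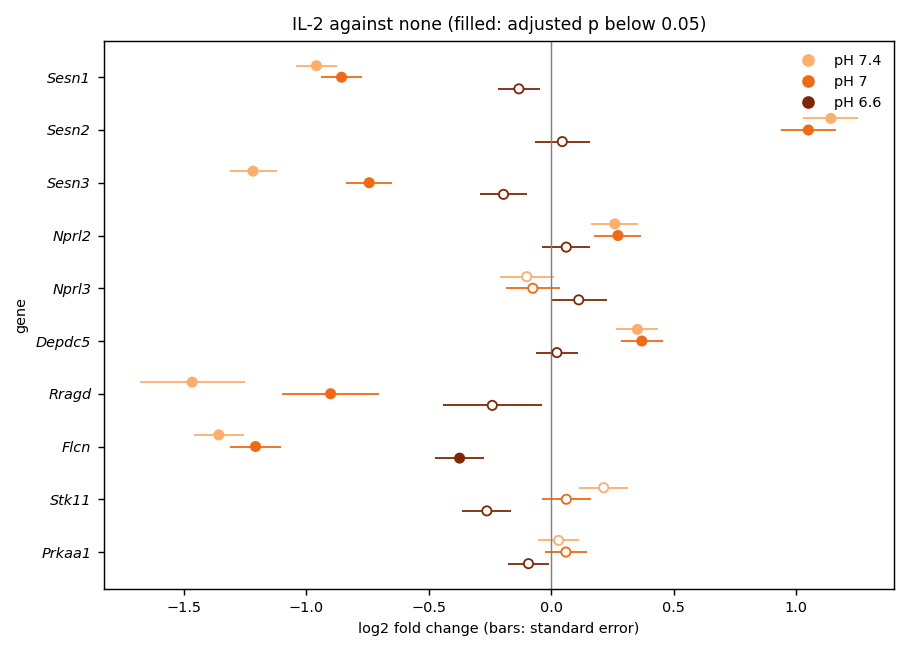
Log2 fold change of each gene with IL-2 against none at pH 7.4, pH 7 and pH 6.6 (light to dark), with standard errors; filled points passed the threshold. At pH 6.6 Flcn is the only filled point, and Stk11, at -0.26, lies on the other side of 0 from its pH 7.4 point at 0.21. Both of these Stk11 values missed the threshold, and the pH 7.4 value was -0.0103 with upper-quartile scaling.

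Against the cells at 0 h, which had been growing in IL-2, a day at pH 7.4 with IL-2 left 3 genes higher (Depdc5, Nprl3 and Prkaa1) and 3 lower (Flcn, Rragd and Sesn1), against 29% and 30.9% of all genes. Flcn had a log2 fold change of -0.97 ± 0.10 and Depdc5 of 0.65 ± 0.09. The Sesn1 call was lost without replicate 4 (adjusted p = 0.127) or replicate 5 (0.218), and that of Prkaa1 without replicate 1 (0.199), all by edgeR. Without the replicate block, the Sesn1 and Rragd calls were lost (adjusted p = 0.0723 and 0.0591). Calls of Sesn2 (-0.32, adjusted p = 0.0139) and Nprl2 (-0.28, adjusted p = 0.0157) were gained with upper-quartile scaling, and of Stk11 (0.26, adjusted p = 0.0149) without replicate 1, by edgeR. Without IL-2, 7 genes were higher than at 0 h and 2 lower, against 36.9% and 38.3% of all genes. Sesn3 rose by 1.29 ± 0.10 on the log2 scale and Sesn1 by 0.73 ± 0.08. Sesn2 had -1.30 ± 0.11, from 68.4 to 93.8 CPM at 0 h to 28.1 to 43.1 CPM. Rragd had 0.59 ± 0.20, a call that was lost without replicate 1 (0.47, adjusted p = 0.071) and without the replicate block (0.68, adjusted p = 0.0861).

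By TPM with the joined length of all exons of a gene, the 10 genes ranked differently at pH 7.4 and pH 6.6 with IL-2. At pH 7.4, Stk11 (71.8 ± 4.8 TPM; SD, n = 5), Sesn2 (70.6 ± 6.5), Sesn3 (63.5 ± 9.6) and Prkaa1 (61.7 ± 8.6) were the highest and within each other's spread, while Flcn had 19.97 ± 1.57. At pH 6.6, Sesn3 led with 142.4 ± 15.4 TPM, and Flcn stood at 84.2 ± 8.2 TPM, beside Stk11 and Sesn1 at 94.2 ± 8.1 and 82.1 ± 5.8. With these lengths, Depdc5, Nprl3 and Rragd were the 3 lowest in both. The order between genes depends on the length used. Sesn3 has 15269 exon bases but 9125 in its longest transcript, and Nprl3 has 7572 and 3531, while Sesn2 has 3475 in both. By the longest transcript, Sesn3 and Nprl3 would therefore stand higher against Sesn2 in either condition.

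Genes around these sensors were described by their role, in lists that were also chosen with earlier results of these data known. With IL-2, at pH 6.6 against pH 7.4, 9 of 34 tested other pathway genes were higher and 18 lower, against 35.4% and 40.9% of all genes (median log2 fold change -0.25, against -0.07 over all genes). Of the amino acid sensors, 4 of 5 tested were higher and 1 lower, a small list to read against those shares. Slc38a9, the lysosomal arginine sensor, had a log2 fold change of 1.32 ± 0.08, Bmt2 (SAMTOR), a sensor of S-adenosylmethionine, 1.66 ± 0.22, and Castor1, a cytosolic arginine sensor, 1.09 ± 0.12. Lars, the leucyl-tRNA synthetase, was the sensor that fell (-1.34 ± 0.08). IL-2 at pH 7.4 had lowered Slc38a9 (-2.16 ± 0.08), Bmt2 (-1.29 ± 0.22) and Castor2 (-1.05 ± 0.11) and raised Lars (1.21 ± 0.08).

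The partners of folliculin went opposite ways. Fnip1 rose with Flcn at pH 6.6 with IL-2 (1.38 ± 0.11, from a mean of 36.8 to 95.8 CPM), and Fnip2 fell (-2.07 ± 0.17, from 15.8 to 3.74 CPM). IL-2 at pH 7.4 raised Fnip2 by 3.10 ± 0.18 on the log2 scale, from a mean of 1.83 CPM. Without IL-2, the pH 6.6 difference of Fnip2 from pH 7.4 did not pass (0.14 ± 0.21).

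Of the complexes that hold GATOR1 in check or in place, 4 of 5 GATOR2 genes were lower and 1 higher, and 3 of 4 KICSTOR genes were lower, at pH 6.6 with IL-2, where 40.9% of all genes were lower. Itfg2 (-1.15 ± 0.12) and BC048403 (-1.46 ± 0.15), both KICSTOR genes, fell most, and BC048403 fell as much without IL-2 (-1.47 ± 0.17; difference 0.01 ± 0.21). Sec13, a GATOR2 subunit shared with the nuclear pore and vesicle coat, had risen with IL-2 at pH 7.4 (1.67 ± 0.07). Of the 8 Rag and Ragulator genes, 5 were lower, with Rraga (-1.004 ± 0.07) and Lamtor1 (-1.002 ± 0.08) the most changed. Among the upstream kinases, Camkk2, an AMPK kinase, fell both with (-1.37 ± 0.13) and without IL-2 (-1.63 ± 0.14), and Stradb, a pseudokinase partner of LKB1, rose with IL-2 (1.11 ± 0.08).

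**Figure D4:**
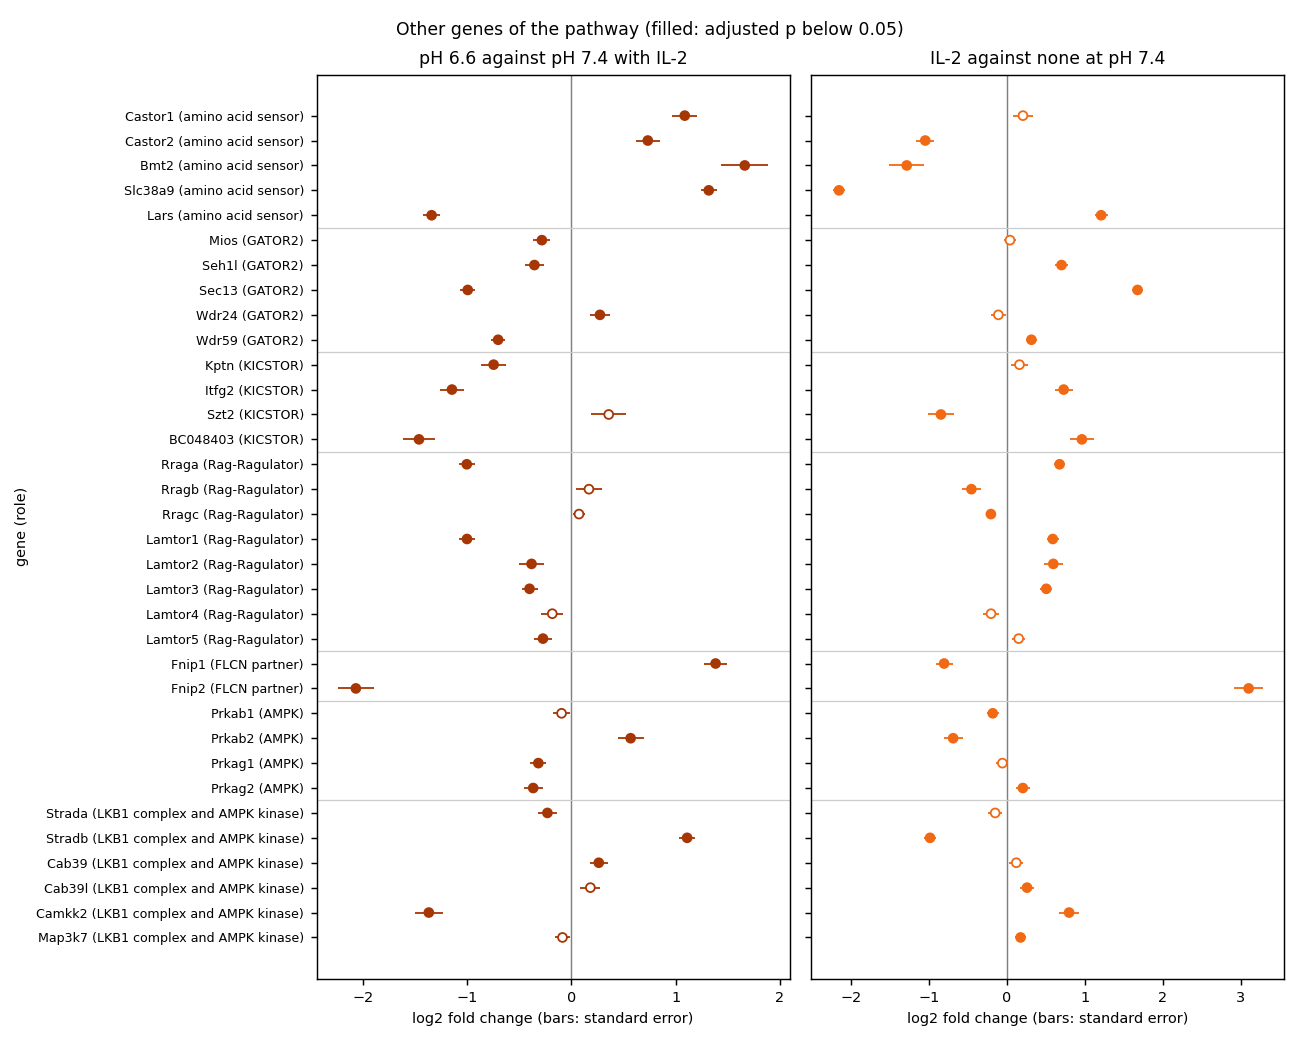
Log2 fold change of the other pathway genes, grouped by role, at pH 6.6 against pH 7.4 with IL-2 (left) and with IL-2 against none at pH 7.4 (right), with standard errors; filled points passed the threshold. The amino acid sensors Slc38a9, Bmt2 and Lars and the folliculin partner Fnip2 had opposite signs in the 2 panels, which share the pH 7.4 libraries with IL-2.

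Sestrins and Flcn are known targets of stress and starvation factors, and lists of 20 targets each were read in the same fit. The lists were chosen with earlier results of these data known, so their counts are a description and not a test. Whether these factors acted on the 10 genes was not tested. At pH 6.6 with IL-2, 16 of 19 tested FoxO targets were higher and 3 lower, against 35.4% and 40.9% of all genes (median log2 fold change 2.17), led by Bcl6 (4.12 ± 0.16), Fbxo32 (3.72 ± 0.13) and Irs2 (3.59 ± 0.22). Of the ATF4 targets, 14 of 20 were lower and 3 higher (median -1.50), led by Cth, Slc7a5 and Slc7a11. Slc7a5, a leucine transporter, had -3.13 ± 0.16, while Cth and Slc7a11 held too few reads for a fold, with means of 0.583 and 0.455 CPM at pH 7.4 and 0.0084 and 0.0565 CPM at pH 6.6. The p53 list had 12 higher and 4 lower of 20 (median 0.58), led by Bbc3 (2.84 ± 0.19), Plk2 (2.68 ± 0.19) and Trp53inp1 (2.43 ± 0.19). The TFEB list had 10 higher and 4 lower of 19 (median 0.18), led by Wipi1 (2.30 ± 0.16), Sqstm1 (1.49 ± 0.09) and Map1lc3b (1.47 ± 0.09). Without IL-2, where 31.6% of all genes were higher and 35.4% lower at pH 6.6, the ATF4 list had 9 higher and 3 lower (median 0.33) and the FoxO list 8 higher and 6 lower (median 0.15). The p53 list had 13 higher and 1 lower there (median 0.475), and the TFEB list 7 higher and 4 lower (median 0.03).

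The genes most like the 3 with the widest range were found by Pearson correlation of log2 CPM over the 35 libraries, which share their 7 conditions and 5 replicate numbers. Flcn was closest to Arih2 (r = 0.981), Fars2 (0.975) and Rab40c (0.975). Sesn3 was closest to Tbc1d14 (0.971), Setd7 (0.97) and Ranbp6 (0.969). Rragd had no match as close, with Gfi1 (0.866), Naip5 (0.845) and P2rx4 (0.834). Within the 10, Sesn1 and Sesn3 had r = 0.816 and Sesn1 and Sesn2 r = -0.733.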

How the data were processed

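The data are 35 RNA libraries of OT-I CTLs, 5 for each of 7 conditions. The authors made stranded poly(A) libraries, read single ends on a HiSeq instrument, and deposited raw counts per gene for each library without normalization. The submitters' processing notes name cutadapt 1.8, STAR 2.5.2b, HTSeq 0.6.1 and the build GRCm38; the strand setting and the annotation release are not given in the sources used here. Library sizes and tests used no row without a gene: reads aligned to several places (median 37.1%), outside genes (7.42%) and on several genes (0.92%). Reads of the first kind went to no gene, so genes with near-identical copies can be too low. All such shares are of the sum over rows with and without a gene, in which unaligned reads made up 0%. Whether a read aligned to several places was counted at each of them is not given in the sources used here. At least 99.6% of 50-base windows were unique for 8 of the members, 83.9% for Nprl3 and 96.2% for Stk11. A window that matched either strand of another gene's transcript was not unique. Nprl3 and Stk11 overlap Mpg and Cbarp on the other strand, so their lower shares need not mean near-identical copies elsewhere.

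In R 4.3.3, edgeR 4.0.16 kept 13819 genes (filterByExpr, minimum count 10) and scaled them by TMM. A single robust quasi-likelihood fit took in all libraries and had the replicate number as a block, since the study used paired tests and cells of the 5 replicates were cultured in each condition. Of 105 same-numbered pairs of libraries, 95 had deviations from the group mean correlated above 0.1 (median 0.273, against -0.0745 for different numbers). Contrasts compared pH, IL-2 and time as described, with a Benjamini-Hochberg adjusted p of 0.05 over all tested genes as the threshold; the standard error is the log2 fold change divided by the square root of F. CPM and log2 CPM (prior count 2) use TMM, and TPM uses exon union lengths of GENCODE M21. A separate list of gene names matched symbols for 48349 identifiers. No 2 libraries of a group differed by less than the sampling noise (lowest chi-square per degree of freedom 6.65 in 70 pairs). Alternatives were other scalings, filters, DESeq2 1.42.0, a fit without the block, a fit of only the groups compared, and leaving out each replicate number. Other genes named were pathway genes past the threshold and changed 2-fold or more in pH 6.6 against pH 7.4 or in IL-2 at pH 7.4, the 3 largest of each target list, and the 3 genes most like each of the 3 members with the widest range of group means. The members and all lists were chosen with earlier results of these data known.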

Additional observations from a re-analysis of the deposited data

Results flagged for a closer look

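In 4 of 70 groups of 5 libraries, 1 library stood far from the other 4 (Dixon's test, which flags about 1 in 20 groups by chance). These were Sesn1 at pH 7 with IL-2, where replicate 1 held 76.39 CPM, Nprl2 at pH 7 without IL-2 (replicate 4, 18.9 CPM) and at pH 6.6 with IL-2 (replicate 3, 17.82 CPM), and Rragd at pH 7.4 without IL-2 (replicate 1, 15.44 CPM).

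The effect of pH 6.6 differed between cells with and without IL-2 for 7 of the genes, by the edgeR interaction contrast. These were 4 higher and 3 lower, against 34.3% and 32.8% of all tested genes, so a call in this contrast was common. The difference on the log2 scale was 0.83 for Sesn1, -1.10 for Sesn2, 1.02 for Sesn3, 1.23 for Rragd, 0.98 for Flcn, -0.33 for Depdc5 and -0.48 for Stk11. All 5 pairs of equal number showed the direction in each. The Depdc5 and Stk11 differences were under the threshold with upper-quartile scaling (-0.07 and -0.22) and with total counts (-0.10 and -0.25).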

How the results depend on the processing

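Of 100 member values (10 genes in 10 comparisons), 53 passed the threshold. Over the alternatives other than leaving out a replicate, 727 values kept their direction and side of the threshold, 31 lost and 14 gained a call and 28 changed sign; over the leave-one-out fits these were 447, 20, 4 and 29. Of the 57 sign changes, 56 had neither value past the threshold. The exception was Prkaa1, IL-2 against none at pH 7.4, at -0.195 (edgeR adjusted p = 0.0258) with upper-quartile scaling. With TMM, upper-quartile scaling and total counts, the median log2 value of all genes was -0.042, -0.266 and -0.2 for IL-2 at pH 7.4, -0.04, -0.227 and -0.158 for IL-2 at pH 7, 0.04, 0.297 and 0.267 in the interaction, -0.026, -0.18 and -0.09 for 24 h with IL-2, and -0.034, -0.153 and -0.187 for pH 6.6 without IL-2. For pH 6.6 with IL-2 these medians were -0.067, 0.071 and 0.008. The median also moved without replicate 1 and then without replicate 2. It was -0.004 and 0.012 for pH 6.6 with IL-2 and 0.14 and 0.137 in the interaction. For IL-2 it was -0.101 and -0.098 at pH 7.4 and -0.106 and -0.105 at pH 7. Small IL-2 and interaction differences of Nprl2, Nprl3, Depdc5, Stk11 and Prkaa1 should be read against these shifts. So should those of Sesn1 and Prkaa1 at pH 6.6 without IL-2, and of Sesn2, Nprl2, Stk11 and Prkaa1 with it. The cause of the changes was not tested.

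Counts moved as follows. At pH 7 with IL-2, 2623 genes were called, with 1660 without the replicate block, 4388 in a fit of only the groups compared and 1283 to 2425 on leaving out a replicate; of the members, 2 were called, and 1 without the block. At pH 7 without IL-2, the 232 calls became 56 without the block, 942 with only the groups compared and 35 to 332 on leaving out a replicate. For IL-2 at pH 6.6, the 3278 calls became 5369 with only the groups compared (members 1 to 3) and 2119 to 2630 on leaving out a replicate (members 0 to 1). The fit without the replicate block also lost the calls of Sesn1 (adjusted p = 0.0723) and Rragd (0.0591) at 24 h with IL-2 against 0 h, and of Rragd at 24 h without IL-2.

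Sign changes with upper-quartile scaling and then total counts were 0.0068 and 0.0159 for Prkaa1 at pH 7 with IL-2, -0.104 and -0.1377 for Sesn3 at pH 6.6 without IL-2, 0.0017 and 0.0078 for Nprl2 and 0.0011 and 0.007 for Nprl3 at pH 7 without IL-2, -0.1253 and -0.0565 for Stk11 and -0.1274 and -0.0588 for Prkaa1 for IL-2 at pH 7, and 0.0592 and 0.0305 for Nprl2 and 0.1347 and 0.1045 for Prkaa1 in the interaction. With upper-quartile scaling alone, Stk11 had -0.0103 for IL-2 at pH 7.4 and -0.0174 at 24 h with IL-2, and Sesn3 -0.0768 at 24 h with IL-2. With total counts alone, Prkaa1 had -0.1286 for IL-2 at pH 7.4 and Stk11 0.0184 at 24 h without IL-2; the stricter filter gave Prkaa1 -0.0196 for IL-2 at pH 7.4. RLE scaling and DESeq2 gave Nprl2 0.0116 and 0.0113 at pH 6.6 without IL-2, and RLE, the looser filter and DESeq2 gave Depdc5 -0.0024, -0.0023 and -0.0026 at pH 7 without IL-2.

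On leaving out a replicate, values that changed sign ranged as follows: at pH 7 with IL-2, Nprl2 from -0.039 to 0.1082, Nprl3 from -0.0104 to 0.0328 and Prkaa1 from -0.0826 to 0.0019; at pH 6.6 without IL-2, Sesn3 from -0.0545 to 0.1199, Nprl2 from -0.0826 to 0.0048 and Rragd from -0.3262 to 0.0391; at pH 7 without IL-2, Sesn3 from -0.0564 to 0.0134, Nprl2 from -0.0452 to 0.028, Nprl3 from -0.0358 to 0.0273, Depdc5 from -0.013 to 0.0195 and Stk11 from -0.0033 to 0.0805; for IL-2, Prkaa1 from -0.0828 to 0.0867 at pH 7.4 and from -0.0418 to 0.1057 at pH 7, Stk11 from -0.0446 to 0.1662 at pH 7 and Depdc5 from -0.0085 to 0.1052 at pH 6.6. The interaction of Prkaa1 ranged from -0.1739 to 0.0117, Sesn3 at 24 h with IL-2 from -0.047 to 0.1516 and Stk11 at 24 h without IL-2 from -0.1643 to 0.1208. Depth limits Rragd most, with 31 to 478 reads per library.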
